A study of Mus musculus with 3 samples.

Results

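The olfactory receptor gene clusters of the mouse genome are described here by the nucleosomes mapped over them in maturing red cell precursors. Protein-coding genes whose symbol is Olfr and a number, or Or with a number and a letter, were taken from a RefSeq gene table, merged where neighbours lay within 200 kb, and kept as a cluster at 5 or more genes. This gave 34 clusters with 1054 of the 1103 receptor genes on chromosomes 1 to 19. The other 49 receptor genes lie alone or in smaller groups. The clusters span 27112 kb, or 1.13% of the autosomes, and were compared with the 500 kb on each side. Clusters are numbered along their chromosome, so chr7-3 is the third on chromosome 7.

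The 3 libraries came from erythroblasts of mouse fetal liver, obtained from 6 fetuses and lacking the late erythroid surface protein Ter119 when the culture began. All were grown in IMDM medium with erythropoietin at 2 U/ml, insulin, 1% BSA and 10% serum from fetal calves, and chromatin was taken on days 0, 1 and 2. Nuclei were cut with micrococcal nuclease, which digests the linker DNA between nucleosomes, and the authors deposited 1 list of nucleosome positions of 140 bp per library. The sources used here do not give strain, fetal age or whether 1 culture supplied all days. With 1 library per day, the days were not tested against each other, and every difference between them lacks a replicate check.

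Olfactory receptors are G protein-coupled receptors that bind odorants on sensory neurons of the nose, and each neuron expresses 1 of them from 1 allele. The genes are short, with a coding sequence in a single exon, and stand in long arrays of AT-rich DNA. In other cell types the arrays are silent, and in the nose they are known as heterochromatin in which the chosen gene escapes silencing. Red cell precursors have no known use for most of these receptors, but the beta globin genes, which they use heavily, lie inside an array.

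The DNA before the annotated start of a few genes shows how the listed positions fell on the sequence. Olfr279, at chr15:98497224-98497473 on the plus strand, was chosen for the most positions near its ends, and Olfr544, at chr7:102488308-102488557 on the minus strand, is a receptor also studied outside the nose. Olfr17 (P2), at chr7:107097217-107097466 on the plus strand, and Olfr73, a eugenol receptor at chr2:88035138-88035387 on the minus strand, are well studied in the nose. Trim58, at chr11:58640215-58640464 on the plus strand, is an erythroid ubiquitin ligase gene inside cluster chr11-3. Hbb-bs, an adult beta globin gene at chr7:103827929-103828178 on the minus strand, lies inside chr7-3. Each line holds the 250 bases before the start in the direction of the gene, from RefSeq, build GRCm38.p6 (mm10), and capitals mark bases inside a listed position on at least 1 of the 3 days.
Olfr279: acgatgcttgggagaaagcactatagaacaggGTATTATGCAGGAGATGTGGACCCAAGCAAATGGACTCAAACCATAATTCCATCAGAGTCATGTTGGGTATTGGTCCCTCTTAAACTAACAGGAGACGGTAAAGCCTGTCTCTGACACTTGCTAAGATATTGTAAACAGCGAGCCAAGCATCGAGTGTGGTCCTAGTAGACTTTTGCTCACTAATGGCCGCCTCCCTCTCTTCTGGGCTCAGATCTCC
Olfr544: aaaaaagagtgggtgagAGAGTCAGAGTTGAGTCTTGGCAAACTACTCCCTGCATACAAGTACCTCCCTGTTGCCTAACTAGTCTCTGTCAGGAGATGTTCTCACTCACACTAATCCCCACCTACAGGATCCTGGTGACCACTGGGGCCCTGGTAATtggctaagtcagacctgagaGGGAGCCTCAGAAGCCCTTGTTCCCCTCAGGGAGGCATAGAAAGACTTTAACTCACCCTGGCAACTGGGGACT
Olfr17: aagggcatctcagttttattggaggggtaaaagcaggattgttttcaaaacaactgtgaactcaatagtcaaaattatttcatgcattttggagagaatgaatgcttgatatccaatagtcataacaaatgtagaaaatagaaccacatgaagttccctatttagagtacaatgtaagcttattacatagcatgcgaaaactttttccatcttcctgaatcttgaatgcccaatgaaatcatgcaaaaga
Olfr73: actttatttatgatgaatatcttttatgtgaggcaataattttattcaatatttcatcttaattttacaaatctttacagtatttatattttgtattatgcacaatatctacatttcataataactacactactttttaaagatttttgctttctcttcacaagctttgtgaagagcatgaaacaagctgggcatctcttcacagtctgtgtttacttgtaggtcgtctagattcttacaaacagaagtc
Trim58: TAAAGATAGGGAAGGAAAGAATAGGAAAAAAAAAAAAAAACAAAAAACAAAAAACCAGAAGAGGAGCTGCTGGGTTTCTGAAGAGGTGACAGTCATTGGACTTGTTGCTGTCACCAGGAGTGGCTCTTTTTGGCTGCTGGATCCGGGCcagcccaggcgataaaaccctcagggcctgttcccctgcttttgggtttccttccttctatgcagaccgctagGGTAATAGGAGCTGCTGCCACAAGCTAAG
Hbb-bs: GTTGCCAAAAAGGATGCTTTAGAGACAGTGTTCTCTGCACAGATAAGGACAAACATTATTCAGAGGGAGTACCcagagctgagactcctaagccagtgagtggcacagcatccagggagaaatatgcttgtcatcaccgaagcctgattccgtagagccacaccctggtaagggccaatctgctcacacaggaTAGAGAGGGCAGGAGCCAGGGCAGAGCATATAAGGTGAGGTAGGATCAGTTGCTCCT
Of these 250 bases, positions covered 163, 188 and 23 at Olfr279 and 73, 0 and 213 at Olfr544 on days 0, 1 and 2. No base was covered on any day at Olfr17 or Olfr73. Trim58 had 167, 0 and 169 covered bases and Hbb-bs 57, 2 and 73. The share of G and C was 47.2% at Olfr279 and 51.6% at Olfr544, against 33.6% at Olfr17 and 28.4% at Olfr73. Olfr160, a well-studied receptor whose sequence is not printed, had 46.4% G and C and no covered base on any day. It was 47.6% at Trim58 and 50.8% at Hbb-bs.

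The lists held 3735952, 2999502 and 4474045 positions on days 0, 1 and 2. Because each list was called on its own, densities are given as relative density, the positions per kb divided by those of all autosomes in the same library (1.54, 1.23 and 1.82 per kb). The summit value, which the authors give for the centre of each position and which is read here as scaled coverage, lay on whole steps of 1 constant per library for 97.4% to 98.7% of positions, within 0.01 of a step. If 1 step is 1 unit of coverage, the relative depth of the libraries is 1, 2.36 and 1.22, so the list with the fewest positions came from the deepest library. The sources used here give no read totals, and the part of depth in the differences between days was not tested. Intervals are exact 95% intervals and cover counting error only. Of 6 erythroid genes outside the clusters, Klf1, Slc4a1 and Epor had relative densities over the gene between 2.32 and 4.03, lowest on day 2. The alpha globin gene Hba-a1 had 3.20, 1.99 and 4.04, Hba-a2 3.18, 2.97 and 2.01, and Gata1 1.09, 1.81 and 1.42. Gata1 lies on chromosome X, which was sparser than the autosomes, so its values are not level with the others. On day 0 the 6 receptor genes of chromosome X had 0.0555 of the autosome mean but 0.316 of the chromosome X mean. On day 2 these were 0.187 and 0.647. Nucleosome positions do not measure expression, so the cell type in the labels was not checked by marker levels.

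Nucleosome positions were sparse in the receptor clusters on all 3 days, and less so on day 2. The numbers of positions inside clusters were 14820, 11067 and 28315 for days 0, 1 and 2. These are 0.402%, 0.373% and 0.646% of the autosomal positions on 1.13% of the length. The relative density was 0.356, 0.331 and 0.573, while the 500 kb on each side were denser than the autosome mean at 1.35, 1.50 and 1.30. Clusters therefore held 0.264 times the density of their flanks on day 0 (interval 0.2595 to 0.269), 0.220 times on day 1 (0.216 to 0.225) and 0.441 times on day 2 (0.435 to 0.447).

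Single clusters varied widely around the pooled value. Over the 34 clusters the mean relative density was 0.593 ± 0.515, 0.481 ± 0.383 and 0.674 ± 0.259 (SD, n = 34 clusters). The range was 0.133 to 2.03 on day 0, 0.0873 to 1.50 on day 1 and 0.350 to 1.31 on day 2, so the clusters lay closer together on the last day. Of the 34, 25, 28 and 29 were below the autosome mean, and 32, 33 and 33 were below their own flanks. The share of other autosomal regions below the mean was not counted. Outside clusters the median 10 kb tile held 11, 6 and 14 positions, where the mean was 1.55, 1.24 and 1.83 per kb. The typical tile there was thus also below the mean. The interval of the ratio to the flanks lay wholly below 1 in 32 clusters on each day.

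**Figure D1:**
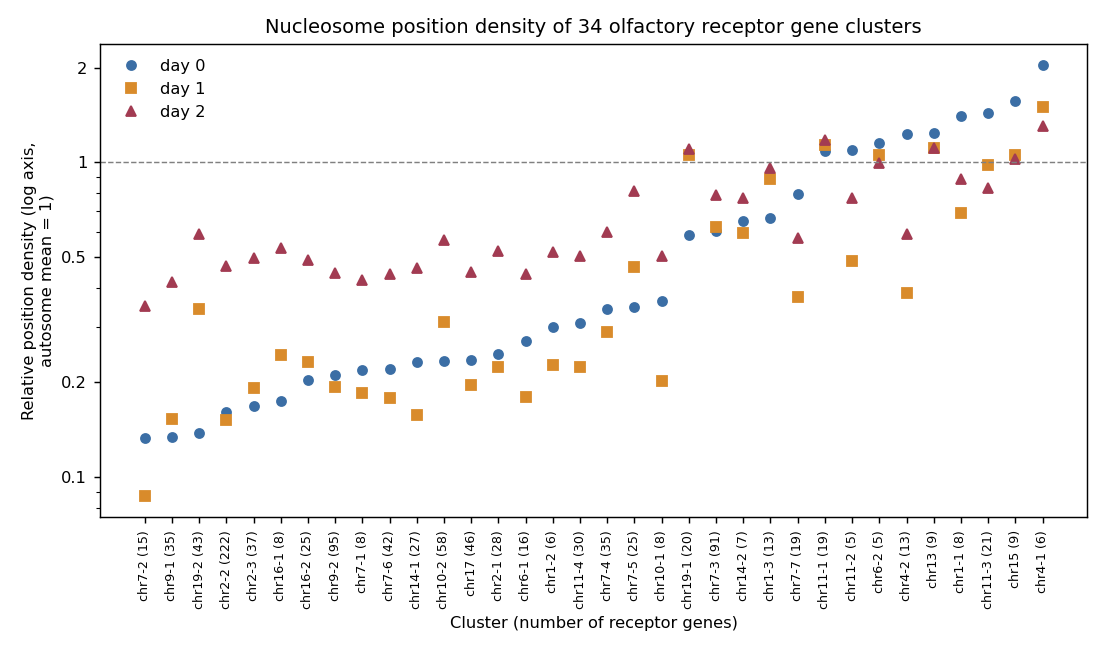
Relative density of nucleosome positions (autosome mean = 1, log axis) in each of the 34 receptor clusters, ordered by day 0 and with the number of receptor genes in brackets, 1 point per cluster and day. Most points lie below 1 on all days, and the day 2 values span 0.350 to 1.31 against 0.133 to 2.03 on day 0.

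The exception on all 3 days was chr1-3, with 13 receptor genes. Its density was 1.38, 1.38 and 1.09 times that of its flanks, and on day 2 the interval reached below 1 (0.995 to 1.19). Its flanks were themselves sparse, at 0.483, 0.642 and 0.882 of the autosome mean. The other exception was chr7-2 on day 0, at 1.04 times, which lay in a stretch where cluster and flanks were both sparse. Across the 34 clusters, Spearman's rho between the density of a cluster and that of its flanks was 0.64, 0.51 and 0.56. With cluster length it was -0.60, -0.48 and -0.44. These are descriptions over clusters that share the same 3 libraries.

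The largest array was also among the sparsest. Cluster chr2-2, with 222 receptor genes at chr2:85330967-90401674, had 1249, 949 and 4319 positions and relative densities of 0.160, 0.152 and 0.467. The next in gene number were chr9-2 with 95 genes at 0.212, 0.194 and 0.444, chr7-3 with 91 at 0.606, 0.622 and 0.790, chr10-2 with 58 at 0.233, 0.310 and 0.568 and chr17 with 46 at 0.235, 0.197 and 0.449. All 5 were denser on day 2 than on day 0. The lowest on day 0 were chr7-2 at 0.133, chr9-1 at 0.134 and chr19-2 at 0.138.

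Of the 9 clusters above the autosome mean on day 0, 8 were lower on day 2. The exception was chr11-1, at 1.08 on day 0 and 1.18 on day 2. The highest were chr4-1, with 6 receptor genes, at 2.03, 1.50 and 1.31, chr15, with 9, at 1.56, 1.06 and 1.03, and chr11-3, with 21, at 1.44, 0.981 and 0.829. All 3 were lower on each later day. They lie in dense surroundings, and chr4-1 was still below its flanks, at 0.897, 0.614 and 0.738 times. Clusters were picked here for their day 0 values, so their order on that day is a description.

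The clusters' summits were also low. The median summit value was 6.10, 5.83 and 5.63 in clusters against 7.62, 6.80 and 6.26 in the flanks. Positions with a summit of 10 or more were 4.60%, 3.26% and 2.71% of those in clusters and 17.0%, 14.3% and 11.0% of those in flanks. The fuzziness score, read here as how widely reads spread around a centre, had medians of 48.2, 52.4 and 49.0 in clusters and 51.5, 54.8 and 51.7 in flanks. Listed positions in the arrays were thus low but slightly less spread than in flanks. This was not particular to the arrays. Median fuzziness was 47.1, 51.6 and 48.4 in stretches of 1 Mb or more without a protein-coding gene, and 46.1, 51.3 and 48.1 in vomeronasal receptor clusters. Summits of 10 or more made up 2.25%, 2.37% and 1.87% and 1.61%, 2.71% and 1.61% there.

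The drop in density was not sharp at the outermost receptor genes. From 0 to 50 kb outside a cluster the relative density was 1.00, 1.05 and 1.04, and from 450 to 500 kb outside it was 1.42, 1.51 and 1.29. Inside, the first 50 kb had 0.697, 0.585 and 0.745, and the stretch from 200 to 250 kb inside had 0.294, 0.332 and 0.558. The last of these rests on 32 cluster ends, since shorter clusters do not reach that far. The difference between day 2 and the earlier days was wider deep inside (0.558 against 0.294 and 0.332) than at the border. The first 50 kb inside rest on 64 cluster ends. Shorter clusters, which are absent deep inside, tended to be denser on day 0 (rho with length -0.60). Depth and the set of clusters therefore cannot be told apart here.

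**Figure D2:**
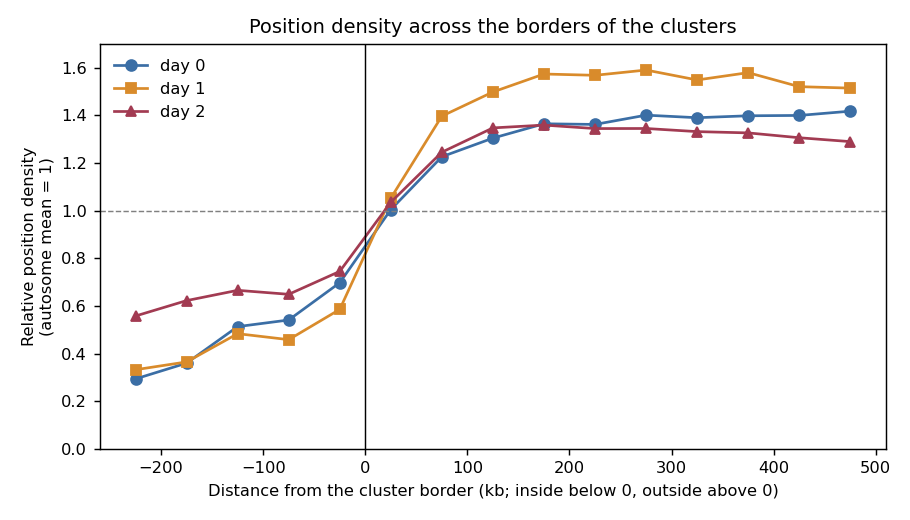
Relative density of positions (autosome mean = 1) in 50 kb steps from the cluster borders, from 250 kb inside (negative) to 500 kb outside (positive), with 1 line per day. All lines fall from about the autosome mean at the border towards the inside, and the day 2 line is highest there, at 0.558 in the innermost step. The steps inside rest on 64 cluster ends at the border and 32 in the innermost step.

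Stretches without any position were nearly absent on day 2. Of 2713 tiles of 10 kb inside clusters, 10.4% held no position on day 0 and 14.2% on day 1. On day 2 this was 0.0737%, or 2 tiles (interval 0.00893% to 0.266%). In the flanks the shares were 1.53%, 3.83% and 0.0319%. The longest stretch without a position measured 58300 bp on day 0, in chr9-1, and 47625 bp on day 1 and 13335 bp on day 2, both in chr2-2. The median over clusters of the longest stretch was 17540, 21560 and 7561 bp. In autosomal DNA outside the clusters empty tiles fell from 5.12% and 10.7% to 0.374%, so the filling of empty stretches on day 2 was not particular to the clusters.

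Between days 0 and 1 the relative density of the pooled clusters changed by a ratio of 0.928 (interval 0.906 to 0.952). From day 1 to day 2 the ratio was 1.73 (1.695 to 1.77), and from day 0 to day 2 it was 1.61 (1.58 to 1.64). The flanks had ratios of 1.11, 0.866 and 0.963 over the same pairs of days. In the pooled values the gap between clusters and surroundings was thus narrower on day 2 from both sides. Cluster by cluster this varied. From day 0 to day 2 the flanks were higher at 18 of 34 clusters, and 23 of 34 clusters had a ratio above that of their own flanks. These ratios share libraries and are not independent of each other.

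Most single clusters followed the pooled values. The day 1 value was above that of day 0 in 11 of 34 clusters, where 40.1% of all 100 kb autosomal bins were higher. Day 2 was above day 1 in 29 of 34, where 69.5% of all bins were higher, and above day 0 in 25 of 34, where 59.9% of all bins were higher. Clusters and bins are unlike units. Of 267 bins with their midpoint in a cluster, 114 (42.7%) were higher on day 1 than on day 0. Day 2 was above day 1 in 94.0% of these bins and above day 0 in 89.9%. From day 0 to day 2 the interval lay above 1 in 23 clusters and below 1 in 8, and the median ratio was 1.74. Scaling each cluster to its own chromosome, which was tried after the data were seen, gave 11, 29 and 25 clusters.

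The largest ratio of day 2 to day 0 was at chr19-2, with 43 receptor genes, at 4.28 (interval 3.75 to 4.91), on 264 and 1343 positions. This cluster was already at 2.48 times its day 0 value on day 1. Its neighbour chr19-1 was at 1.80 times on day 1 and 1.88 on day 2. Scaled to chromosome 19 itself, the day 2 ratio of chr19-2 was 3.92. The next was chr9-1 at 3.11 (2.75 to 3.52), and the large chr2-2 had 2.91 (2.73 to 3.10). The smallest ratios were at chr4-2, at 0.481 (0.415 to 0.557) on 509 and 291 positions, and chr11-3, at 0.577 (0.519 to 0.642).

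Bins of 100 kb gave the same direction at a finer scale for day 2 against both earlier days. From day 0 to day 1 the median ratio of cluster bins was 0.945, above the 0.888 over all bins. Of 267 bins with their midpoint in a cluster, 152 (56.9%) were at least 2 times higher on day 2 than on day 0, against 25.5% of all bins, and 2 were at least 2 times lower, against 0.688%. From day 1 to day 2, 167 (62.5%) were at least 2 times higher, against 39.6%, and none was at least 2 times lower, against 0.00%. From day 0 to day 1, 20 (7.49%) were at least 2 times higher, against 1.62%, and 12 were at least 2 times lower, against 15.0%. These are size rules with no test.

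Other sparse DNA moved in the same direction. In the 246 autosomal stretches of 1 Mb or more with no protein-coding gene the relative density was 0.241, 0.197 and 0.478, and 66.2% of their bins were at least 2 times higher on day 2 than on day 0. In 21 clusters of vomeronasal receptor genes, which serve pheromone sensing and were built by the same rule with 296 genes, it was 0.187, 0.172 and 0.449. The ratio of day 2 to day 0 was 1.98 (1.97 to 1.99) in the gaps and 2.40 (2.32 to 2.485) in the vomeronasal clusters, both above the 1.61 of the olfactory clusters. The olfactory clusters were the densest of the 3 kinds of region on each day.

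Inside the clusters, density differed with what the DNA encodes. Receptor genes had relative densities of 0.502, 0.573 and 0.724, the DNA between genes 0.323, 0.284 and 0.543, and the other protein-coding genes that lie within clusters 1.00, 1.14 and 1.11. The steps between days differed too. From day 0 to day 1 the ratio was 1.14 (1.06 to 1.23) over receptor genes and 0.879 (0.855 to 0.904) between genes, whose intervals do not overlap. From day 1 to day 2 it was 1.26 (1.18 to 1.35) over receptor genes and 1.91 (1.865 to 1.96) between genes. The other genes had 1.14 and 0.977 for the same steps.

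Many single receptor genes had no listed nucleosome at all. No position centre lay between gene start and end in 537, 517 and 229 of the 1054 genes on days 0, 1 and 2. These are 50.9%, 49.1% and 21.7%, against 2.60%, 3.38% and 1.19% of the other autosomal genes. Receptor genes are short, with a median of 948 bp, and the contrast was smaller at matched length. Among the 891 receptor genes of 800 to 1200 bp the shares were 55.6%, 51.1% and 23.9%, and among 512 other autosomal genes of that length they were 45.1%, 48.2% and 24.8%. These other genes were not cleared of vomeronasal receptor genes, whose number among them was not counted. Over all 351 autosomal vomeronasal receptor genes, with a median of 960 bp, the shares were 48.4%, 54.4% and 23.4%. The drop on day 2 in the 1054 olfactory receptor genes rests on positions with summits below 10. With a summit of 10 or more required, 992, 1020 and 990 genes had none, and with genes widened by 500 bp on each side the numbers were 480, 480 and 157. Of the 1054 genes, 106 (10.1%) had no position on any day, 294 (27.9%) had one on all 3 days and 231 (21.9%) had one on day 2 alone. In the 512 other genes of 800 to 1200 bp these shares were 14.1%, 37.1% and 19.9%. The 1054 receptor genes were not limited to that length, so these shares are not matched for it.

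Within the short receptor genes the positions fell on the gene rather than beside it. Of the 891 receptor genes of 800 to 1200 bp, 754 had a start window in the RefSeq sequences and were used here. Their relative density from the start to 900 bp was 0.603, 0.900 and 0.938, against 0.298, 0.230 and 0.466 in the DNA around. The ratio of the former to the latter was 2.02 (1.83 to 2.23), 3.91 (3.52 to 4.36) and 2.01 (1.87 to 2.17). In 440 other genes of the same length, of 512 and taken by the same rule, it was 1.38 (1.26 to 1.51), 1.64 (1.49 to 1.81) and 1.35 (1.24 to 1.46). These intervals do not overlap those of the receptor genes. The other genes were not cleared of vomeronasal receptor genes here either. In 104 receptor genes longer than 1200 bp it was 1.14, 1.08 and 0.896, with intervals that include 1 on each day.

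The same held cluster by cluster. Receptor genes were denser than the DNA between genes in 32, 33 and 31 of the 34 clusters, with a median ratio of 1.68, 2.92 and 1.64. Distance gave the converse: DNA within 1 kb of a receptor gene had relative densities of 0.273, 0.184 and 0.373, and cluster DNA 20 to 200 kb away had 0.385, 0.378 and 0.626. Near-identical receptor genes can exchange reads, so values at single genes are uncertain. The G and C share of the coding sequence was not computed, because no genome sequence was used here, and its part in the contrast was not tested.

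**Figure D3:**
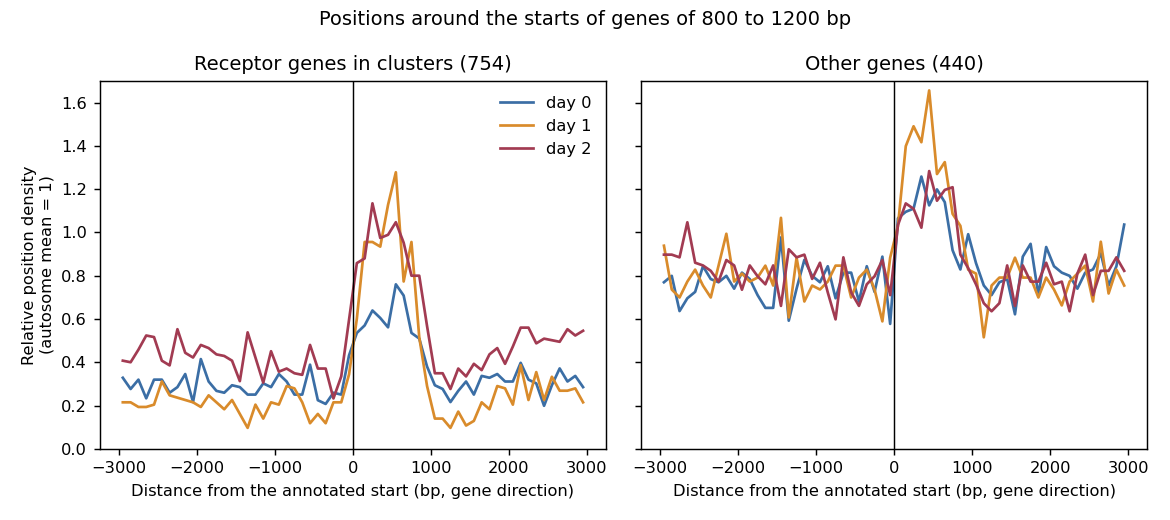
Relative density of positions (autosome mean = 1) by distance from the annotated start in the direction of the gene, for receptor genes of 800 to 1200 bp (left) and other genes of that length (right), with 1 line per day. In the receptor genes the density is higher between the start and about 900 bp than on either side on all days, with the lowest surroundings on day 1 at 0.230.

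The DNA before the receptor genes was poor in G and C. Start windows of 250 bases before to 50 after the start were found in RefSeq for 895 of the 1054 genes, with a median G and C share of 34.7%, against 57.7% in 15519 other autosomal genes. A position centre lay in 15.0%, 10.3% and 24.1% of the receptor windows, against 54.5%, 54.8% and 65.3% of the others. Within classes of equal base composition the contrast was smaller, and in the richest class it was turned on days 0 and 2. Below 35% the shares were 6.24%, 4.01% and 14.7% in receptor genes and 7.76%, 4.31% and 15.1% in others, and their intervals overlap on each day. From 35% to 40% they were 13.1%, 9.84% and 26.2% against 20.03%, 13.4% and 31.6%, and from 40% to 45% they were 27.6%, 20.5% and 34.6% against 38.3%, 29.5% and 48.4%. The receptor intervals exclude the other value on all 3 days from 40% to 45%, and on day 0 alone from 35% to 40%. From 45% to 50% the shares were 46.3%, 27.8% and 48.1% in 54 receptor genes against 48.2%, 38.9% and 57.0%, and the receptor intervals include the other value on each day. The other genes of these classes were not cleared of vomeronasal receptor genes. At 50% or more they were 66.7%, 42.9% and 76.2% in only 21 receptor genes against 59.9%, 63.005% and 71.1%, and the receptor intervals include the other value on days 0, 1 and 2.

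Clusters whose start windows were richer in G and C had a higher density of positions. Over the 34 clusters, whose median G and C share in these windows ran from 30.8% to 51.3%, Spearman's rho with relative density was 0.81, 0.65 and 0.60. With the ratio of day 2 to day 0 it was -0.83. That ratio also had a rho of -0.94 with the day 0 density of the cluster, which is part of it. Whether G and C share tracks the change apart from the day 0 density was not tested. The clusters share libraries, and base composition, depth and day cannot be told apart with 1 library per day.

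**Figure D4:**
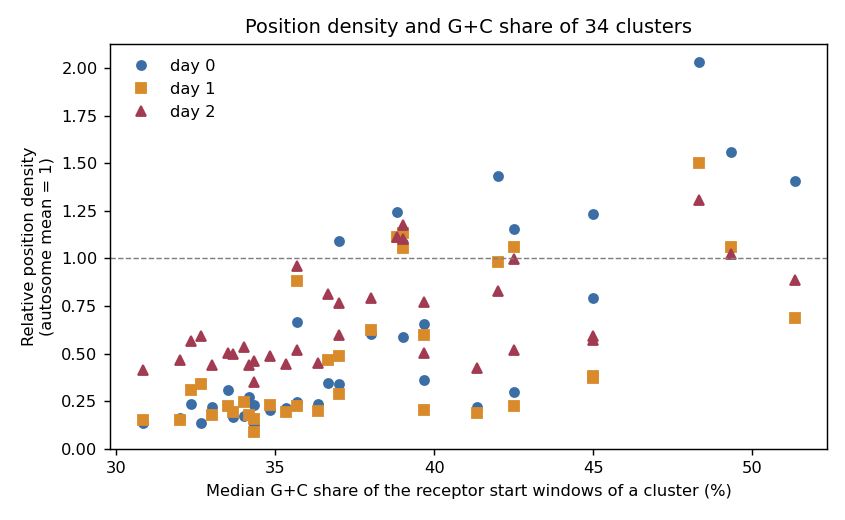
Relative density of positions (autosome mean = 1) in each cluster against the median G and C share of its start windows (percent), 1 point per cluster and day (n = 34 clusters). Density is higher at higher G and C on each day, with rho of 0.81 on day 0, and the day 2 points lie above those of day 0 at the low end.

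Letters bound by factors of olfactory neurons were counted in the same windows on both strands. TAATTA, a core recognised by homeodomain proteins such as Lhx2 and Emx2, was in 169 of 895 receptor windows (18.9%, interval 16.4% to 21.6%) and in 3.76% of the other windows. The palindromic core of the Ebf site was in 5 receptor windows (0.559%) and 0.979% of the others. Neither motif overlaps the other. None of the 6 genes printed above holds one of them. TAATTA is itself made of A and T, so its share moves with the base composition given above.

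The positions that were listed stood far apart. The median distance between neighbouring centres in clusters was 525, 695 and 437 bp, against 240, 220 and 240 bp in the flanks. Distances of 150 to 220 bp, the range of neighbouring nucleosomes, made up 14.9%, 15.7% and 15.5% in clusters and 26.6%, 29.1% and 26.6% in flanks. Few positions were found again on another day. Of the day 0 centres in clusters, 6.53% had a day 1 centre within 20 bp, against 3.83% after a shift of 1000 bp, and in the flanks these were 15.9% and 12.2%. Of the day 1 centres, 12.5% had a day 2 centre, against 7.52% after the shift, and of the day 0 centres 9.82% had a day 2 centre, against 6.51%.

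Cluster chr7-3, at chr7:102476773-104190205, surrounds the beta globin genes. It holds 91 receptor genes, and its 1593, 1315 and 2467 positions gave a ratio of day 2 to day 0 of 1.30 (1.22 to 1.39). The globin genes themselves, from Hbb-bt to Hbb-y over 40.7 kb, held 93, 79 and 116 positions, at relative densities of 1.49, 1.57 and 1.56. The 100 kb on each side, where receptor genes begin again, had 0.814, 1.18 and 1.15. From 100 to 200 kb away it was 0.528, 0.668 and 0.768, from 200 to 300 kb 0.492, 0.478 and 0.666, and from 300 to 1000 kb 0.360, 0.304 and 0.584. Beyond 1000 kb, towards the edge of the cluster on one side, it was 0.960, 0.852 and 0.962. These classes pool both sides, which differ. On the high-coordinate side the last step, from 300 to 325 kb, had 1.07, 1.13 and 1.16. The values farther out come from the low-coordinate side alone.

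The receptor genes nearest to the globin genes thus lay in DNA denser than most of the array. On day 1, 0 to 100 kb away was above the autosome mean, at 292 positions, while the clusters as a whole were at their lowest. In the 25 kb next to the globin genes the densities were 1.18, 1.25 and 1.62. The neighbouring cluster chr7-4, with 35 receptor genes at chr7:104552884-105369317, had 0.341, 0.290 and 0.599. Olfr78, a receptor known from the kidney and carotid body, and Olfr544 lie in chr7-3 away from the globin genes.

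**Figure D5:**
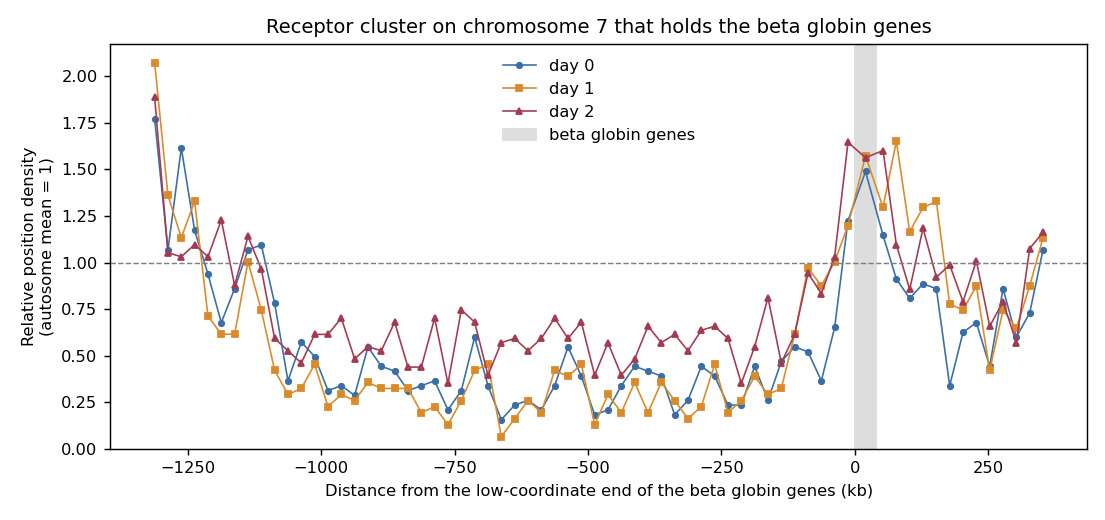
Relative density of positions (autosome mean = 1) in 25 kb steps along cluster chr7-3, by distance from the beta globin genes in kb, with 1 line per day. All days are high at and next to the globin genes and fall to below the mean on both sides. They are high again at the far end beyond 1000 kb, and above the mean in the last step on the other side.

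Among the other genes inside clusters, the 5 of 2 kb or more with the highest day 0 density per kb were Lalba, which encodes the milk protein alpha-lactalbumin, the zinc finger gene Zkscan3, Mgat1, which encodes an enzyme of N-glycan synthesis, Ubqlnl, and Trim21, an antibody receptor of the cytosol. They held 4.34, 3.62, 3.50, 3.48 and 3.31 positions per kb. Mgat1 had 66, 76 and 84 positions, or 2.28, 3.27 and 2.45 times the autosome mean. Trim58, named for its role in red cells and chosen after the values were seen, had 34, 33 and 36 positions (1.85, 2.24 and 1.65 times the autosome mean). Within 25 kb of Trim58 the density was 1.63, 1.55 and 1.28, and from 50 to 100 kb it was 1.33, 0.850 and 0.653.

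The 5 receptor genes listed for the most positions within 500 bp of their ends lay in clusters that were above the autosome mean on day 0. Olfr279, in chr15, had 10, 11 and 10 there, Olfr12 and Olfr1410, in chr1-1, had 9, 7 and 7 and 8, 8 and 5, Olfr1395, in chr11-1, had 7, 9 and 4, and Olfr320, in chr11-3, had 8, 8 and 4. The sum over days chose them, with ties broken by symbol. Olfr544 had the same sum of 20 as Olfr1395 and Olfr320 and was left out by that order. It lies in chr7-3, which was below the autosome mean on day 0, at 0.606. These clusters had 1.56, 1.06 and 1.03 (chr15), 1.41, 0.688 and 0.885 (chr1-1), 1.08, 1.14 and 1.18 (chr11-1) and 1.44, 0.981 and 0.829 (chr11-3), so 2 of the 4 were below the mean on days 1 and 2.

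Receptors known from work on the nose or other tissues held 0 to 4 positions each where the gene is short. For comparison, of the 891 receptor genes of 800 to 1200 bp, 495, 455 and 213 held none and 101, 126 and 214 held 3 or more on days 0, 1 and 2. Olfr17 had 1, 2 and 3, Olfr73 had 0, 1 and 4, Olfr160 (M72) had 1, 0 and 1, Olfr2 (I7) had 2, 1 and 2 and Olfr16, also known from sperm, had 1, 0 and 2. The longer Olfr1507 had 5, 3 and 5 over 5761 bp. Olfr78 had 10, 8 and 20 over 18751 bp. Olfr544 had 17, 15 and 17 over 4194 bp, so its counts are not comparable with those of the short genes. It lies near the low-coordinate edge of chr7-3, and the 25 kb step that begins within it had relative densities of 1.77, 2.07 and 1.89. Olfr17 and Olfr73 were highest on day 2, at counts of 3 and 4.

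The genes that serve smell but lie outside the clusters had levels near those of other genes. Of 21 such genes, 20 are autosomal, and 18, 15 and 14 of these were above the autosome mean, against 77.6%, 74.8% and 78.7% of the autosomal genes that are not receptors. Their medians were 1.71, 1.99 and 1.55, against 2.02, 2.26 and 1.76 over those genes. Omp, a marker of mature olfactory neurons, had 3.12, 5.04 and 2.63, and Adcy3, the adenylyl cyclase of the pathway, had 1.69, 2.15 and 1.55. Gnal, which encodes the G protein of the receptors, had 1.60, 1.32 and 1.14, and Ldb1, the cofactor of Lhx2 that red cells also use, had 3.17, 4.09 and 2.84. The lowest was Pde1c, a phosphodiesterase gene of 583 kb, at 0.651, 0.249 and 0.604. Cnga2, the channel subunit gene on chromosome X, held 9, 0 and 9 positions.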

How the data were processed

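Bowtie2, bedtools and build mm10 are named, without their roles, per the submitters' processing notes. Versions, position caller and read totals: not given in the sources used here. Deposited was 1 position list per library, with a summit value, read here as a scaled coverage signal, p-values for summit and fuzziness, which were not used, and a fuzziness score, all as the authors deposited them, per the file headers. Positions were called per library, so the listing threshold limits all densities.

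Position centres were counted over clusters, flanks (other clusters left out), genes, 100 kb bins (1 position added) and tiles. Genes came from a RefSeq table of GRCm38.p6. Ratios have exact conditional binomial intervals and shares exact Clopper-Pearson intervals. Counting was checked on simulated positions. Python 3.11.15, numpy 2.4.6, pandas 2.3.3, scipy 1.17.1 and matplotlib 3.10.9 were used.

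The members and lists were chosen with earlier results of these data known. Named were the 5 clusters with most genes, the globin cluster, the 3 highest and 3 lowest on day 0, the 2 largest and 2 smallest ratios of day 2 to day 0, well-studied receptors, the 5 receptors with most positions at their ends, and the 5 other genes of 2 kb or more with the most positions per kb on day 0. Olfr151 is a pseudogene in the table and no member. The values of 1 gene inside a cluster are not reported here.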

Additional observations from a re-analysis of the deposited data

Results flagged for a closer look

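The 6 receptor genes on chromosome X were outside the clusters and all comparisons. Widened by 500 bp on each side, to 11.7 kb in all, they held 1, 0 and 4 positions on days 0, 1 and 2. The 4 positions of day 2 exceed 3, the limit that a count of 0 allows within 1 library. The lists differ in size, and the limit for the 0 of day 1 is 4.47 when scaled to the day 2 list, so a difference between these days was not detectable. No position was found at 5, 6 and 2 of the 6 genes.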

How the results depend on the processing

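Of the recomputed values, 37 stayed within the counting error or within 1.5 times of a count, and the other 77 follow. The pooled change ratios kept their side of 1 in every alternative run. The order of days 0 and 1 in receptor genes without a position turned at a summit minimum of 10 and was a tie with widened genes. Bins at least 2 times lower on day 2 than on day 0 made up 7.17% of cluster bins against 11.3% of all at that minimum, and 0.749% against 0.688% without it. The causes were not tested. No paired analysis was possible because there is 1 library per day. Depth and listing threshold are unknown for each list and limit all densities. With a summit minimum of 10, the relative density was 0.109, 0.0811 and 0.172 and the ratio to the flanks 0.0713, 0.0503 and 0.108 on days 0, 1 and 2. The change ratio was 0.744 (day 1 over day 0), 2.11 (day 2 over day 1) and 1.57 (day 2 over day 0). Weighting positions by summit value, the relative density was 0.311, 0.284 and 0.513 and the ratio to the flanks 0.225, 0.187 and 0.383 on days 0, 1 and 2. The change ratio was 1.81 (day 2 over day 1) and 1.65 (day 2 over day 0). With a merge distance of 100 kb (42 clusters), the relative density was 0.329, 0.295 and 0.548 and the ratio to the flanks 0.253, 0.203 and 0.433 on days 0, 1 and 2. The change ratio was 0.894 (day 1 over day 0), 1.86 (day 2 over day 1) and 1.66 (day 2 over day 0). With a merge distance of 500 kb (32 clusters), the relative density was 0.418, 0.413 and 0.628 and the ratio to the flanks 0.311, 0.277 and 0.488 on days 0, 1 and 2. The change ratio was 0.986 (day 1 over day 0), 1.52 (day 2 over day 1) and 1.50 (day 2 over day 0). With clusters of 10 or more genes (23 clusters), the relative density was 0.308, 0.300 and 0.552 and the ratio to the flanks 0.242, 0.204 and 0.433 on days 0, 1 and 2. The change ratio was 0.974 (day 1 over day 0), 1.84 (day 2 over day 1) and 1.79 (day 2 over day 0). Without the largest cluster, chr2-2, the relative density was 0.401, 0.372 and 0.597 and the ratio to the flanks 0.301, 0.253 and 0.466 on days 0, 1 and 2. The change ratio was 1.61 (day 2 over day 1) and 1.49 (day 2 over day 0). With flanks of 250 kb, the ratio to the flanks was 0.282, 0.233 and 0.453 on days 0, 1 and 2. Scaled to the flanks, the change ratio was 0.835 (day 1 over day 0), 2.00 (day 2 over day 1) and 1.67 (day 2 over day 0). Scaled to the own chromosome, an alternative added after the data were seen, the change ratio was 1.81 (day 2 over day 1) and 1.67 (day 2 over day 0). Scaled to the flanks, 7 clusters were higher (day 1 over day 0). At a summit of 10 or more, 992, 1020 and 990 receptor genes had no position on days 0, 1 and 2. Of 223 cluster bins at that minimum, those changed at least 2 times numbered 40 (day 1 over day 0, higher; background 11.95%), 27 (day 1 over day 0, lower; background 24.4%), 87 (day 2 over day 1, higher; background 28.5%), 15 (day 2 over day 1, lower; background 4.19%) and 16 (day 2 over day 0, lower; background 11.3%). Empty tiles of 5 kb in clusters were 25.8%, 33.5% and 2.62%. The excess of shared positions over the shift, within 40 bp, was 4.49 percentage points (day 0 in day 1), 8.45 percentage points (day 1 in day 2) and 4.74 percentage points (day 0 in day 2). The excess of shared positions over the shift, at a summit of 10 or more, was 1.40 percentage points (day 0 in day 1) and 1.47 percentage points (day 0 in day 2).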

Other observations

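The 49 receptor genes on autosomes that lie alone or in groups under 5 had relative densities of 1.58, 1.62 and 1.38 over the gene on days 0, 1 and 2. Counted in the same way, gene by gene with bases shared by overlapping genes counted for each, the 1054 clustered ones had 0.503, 0.573 and 0.724. No position lay in 12, 9 and 5 of the 49. Their median length of 951 bp is close to the 948 bp of the clustered genes.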
